A study of Arabidopsis thaliana with 18 samples.

Results

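Gibberellin (GA) is the growth hormone that plants make in a series of oxidation steps, and the 10 genes described here act at its last steps of synthesis, at its inactivation and at its perception. They were taken by name from the deposited table of 33039 genes: GA20OX1, GA20OX2 and GA3OX1 for synthesis, GA2OX1, GA2OX2, GA2OX6 and GA2OX8 for inactivation, and the receptors GID1A, GID1B and GID1C. The choice used no measured value, but it was made with earlier results of these data known. RNA of the aboveground parts of wild-type Col-0 Arabidopsis thaliana was sequenced from plants cultivated with the root endophytic fungus Serendipita indica (Si) or without it (CK). Seedlings were 9 days old at inoculation on plates of PNM, a cocultivation medium, and were kept for 7 days at 22, 25 or 28°C with 12 h of light per day. All of them had been raised at 22°C on a sucrose medium before inoculation. Each of the 6 groups of treatment and temperature had 3 samples, which the labels call biological replicates, and the 18 samples were examined together. The comparisons ask how the fungus in the root changes gene expression in the shoot and whether ambient temperature alters that change.

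The bioactive GAs are formed in the cytosol by GA20-oxidases, which make the precursors, and GA3-oxidases, which carry out the last step. GA2-oxidases hydroxylate GAs and thereby remove them. A GA molecule bound by a GID1 receptor brings the receptor to DELLA proteins, repressors of growth, which are then degraded. In Arabidopsis, the transcripts of several GA20-oxidases, GA3-oxidases and GID1 receptors fall when GA is abundant and those of several GA2-oxidases rise, so the pathway is known for its feedback on transcript levels. Elongation of the shoot at warm ambient temperature, for which the transcription factor PIF4 is needed, is one of the growth responses in which GA takes part.

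Expression is given in TPM, a unit of transcripts that corrects for gene length and scales every sample to the same total, so levels of different genes can be compared. How many reads stand behind a level is unknown, and errors are therefore those among replicate samples. An SD is that of the 3 samples of a group, and an SE is that of the limma fit to all 18 samples. Fold changes were computed on the scale of log2(TPM + 1), which understates the change of genes near or below 1 TPM, and tested with limma over the 20044 genes that had at least 1 TPM in at least 3 samples. A change was called when the p adjusted over all these genes was at most 0.05 and the absolute log2 fold change was above 1, and a difference of the Si effect between temperatures (an interaction) was called on the adjusted p alone. Of the 10 genes, 8 passed this filter. GA20OX1 and GA2OX1 stayed under 1 TPM in all 18 samples.

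Several facts of the whole table bear on these genes. Over all genes tested, the median of the log2 fold changes was not 0 but 0.26, 0.26 and 0.22 for Si against CK at 22, 25 and 28°C, and median-of-ratios scaling, which brings the samples to a common median, moved it to 0.01, 0.00 and 0.00. With that scaling, the part of all calls that were higher in Si went from 85.7 to 66.3% at 22°C, from 77.8 to 57.5% at 25°C and from 82.2 to 66.1% at 28°C. Where any of the 10 genes loses a call, or its Si effect turns direction, under another scaling, the value is given below. For changes that were not called, a loss of the adjusted p is not given in every case. The 6 leaf markers summed to 33210 to 59880 TPM per sample. The 12 root markers summed to 2.67 to 10.3 TPM, and 7 of them were under 1 TPM in every sample. The mean root sum was 3.22, 4.08 and 8.26 TPM in CK and 3.56, 6.72 and 9.21 TPM in Si at 22, 25 and 28°C, but its markers did not move alike. In CK, CASP1 went from 0.80 to 5.15 TPM between 22 and 28°C and NRT2.1 from 1.51 to 0.80 TPM, and in Si, CASP1 went from 0.65 to 1.47 TPM and NRT2.1 from 2.18 to 6.41 TPM. The leaf sum and the number of genes at 1 TPM or more also moved with both treatment and temperature. The leaf sum was 55990 to 59880 TPM in CK at 22°C, 41940 to 45090 TPM in CK at 28°C and 33210 to 36450 TPM in Si at 28°C, and these groups had 17531 to 17758, 18340 to 18533 and 19271 to 19509 such genes. The leaf markers also differed among themselves. From 22 to 28°C in CK, LHCB1.3 went from 17400 to 5948 TPM, RBCS1A from 16110 to 13980 and RBCS2B from 9647 to 8729. LHCA1 went from 4305 to 3300, RBCS3B from 6692 to 7316 and CA1 from 3557 to 3848 TPM. At 22°C, RBCS1A was at 18580 TPM in Si and 16110 TPM in CK, and LHCB1.3 at 7410 and 17400 TPM. The part of these differences in the results was not tested. In whole shoots, fewer cells of a type and less RNA per cell cannot be told apart.

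All 10 genes lie on the nuclear chromosomes of the TAIR10.1 annotation of RefSeq without overlap by another annotated gene, and each has in the table exactly the length of one of its annotated transcripts. The 250 bases before the annotated start of each gene were searched on both strands for 6 short motifs. The PIF-binding E-box, CATGTG on either strand, was present in GA20OX2, GA3OX1 and GID1B, 3 of the 10 genes, while 11.1% of 27438 such windows of annotated genes held it. GA20OX2 (AT5G51810, chromosome 5, minus strand) had 2 of these sites, starting 200 and 57 bases before the start. GA3OX1 (AT1G15550, chromosome 1, minus strand) had it at 70 bases and GID1B (AT3G63010, chromosome 3, plus strand) at 87 bases before the start. These windows are shown because they hold the letters that PIF factors are known to bind. GA2OX6 and GA2OX8, which were called in Si against CK, do not hold them, and GID1B was not called in any comparison. A link of these letters to the changes was not tested. The windows are written 5′ to 3′ on the strand of the gene, and capitals mark the searched motifs.
GA20OX2, chr5:21056882-21057131, minus strand: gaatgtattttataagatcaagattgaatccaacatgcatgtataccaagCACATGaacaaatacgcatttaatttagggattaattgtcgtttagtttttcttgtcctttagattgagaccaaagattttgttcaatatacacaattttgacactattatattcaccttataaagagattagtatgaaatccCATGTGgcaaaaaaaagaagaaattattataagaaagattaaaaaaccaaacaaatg
GA3OX1, chr1:5346343-5346592, minus strand: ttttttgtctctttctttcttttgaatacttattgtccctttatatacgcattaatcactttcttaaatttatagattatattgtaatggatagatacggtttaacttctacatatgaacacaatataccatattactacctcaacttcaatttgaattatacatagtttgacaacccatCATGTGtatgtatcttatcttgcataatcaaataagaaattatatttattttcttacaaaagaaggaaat
GID1B, chr3:23288993-23289242, plus strand: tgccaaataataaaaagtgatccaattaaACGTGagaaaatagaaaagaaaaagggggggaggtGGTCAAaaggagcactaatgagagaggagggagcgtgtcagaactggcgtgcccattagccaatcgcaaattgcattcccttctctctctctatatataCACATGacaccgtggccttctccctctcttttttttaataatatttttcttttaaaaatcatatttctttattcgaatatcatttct

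In the GID1B window, capitals also mark the core of the ABA-responsive element, ACGTG, and the W-box, TTGACC, here read on the other strand. The ABRE core was in 5 of the 10 windows (GA2OX2, GA2OX8, GID1A, GID1B and GID1C) against 22.9% of all windows. The W-box, searched only in the form TTGACC, was in GID1B alone against 12.2%. The GA-responsive element TAACAAA was in GA2OX8, GID1A and GID1C against 16.1%, and in GID1C its bases overlap those of the ABRE core. The G-box CACGTG, which contains the ABRE core, and the evening element AAAATATCT were in none of the 10, against 6.49 and 2.36%. A match describes letters in this window and does not show that a factor binds there.

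GA20OX1 (AT4G25420, chromosome 4, 12990851 to 12992585), a GA20-oxidase of stem growth, was between 0.00 and 0.53 TPM, and 1 CK sample at 25°C was listed at 0. Its group means were 0.13 to 0.20 TPM in CK and 0.27 to 0.33 TPM in Si. In a fit without the filter, over 26122 genes, the Si effects were 0.09, 0.18 and 0.21 at 22, 25 and 28°C, with limma adjusted p of 0.52, 0.19 and 0.125.

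GA20OX2 (AT5G51810, chromosome 5, 21055179 to 21056881), the other GA20-oxidase, was low in these shoots, and its level in Si relative to CK differed between temperatures. At 22°C it had 1.38, 0.92 and 1.25 TPM in CK and 0.29, 0.13 and 0.55 TPM in Si. All 3 Si samples were below all 3 CK samples. At 25°C it had 0.90, 0.62 and 0.56 TPM in CK and 0.76, 1.01 and 0.86 TPM in Si, and the groups overlapped. At 28°C it had 0.86, 0.62 and 1.08 TPM in CK and 1.54, 1.77 and 1.81 TPM in Si. Here all 3 Si samples were above all 3 CK samples.

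On the log2 scale, the Si effect on GA20OX2 was -0.73 ± 0.15 (SE) at 22°C, 0.15 ± 0.15 at 25°C and 0.55 ± 0.15 at 28°C, with limma adjusted p of 0.00072, 0.40 and 0.0058. None passed the threshold on the fold. Because the gene lies around 1 TPM, that depended on the pseudocount: at 22°C the effect was -1.05 with a pseudocount of 0.5 and -1.71 with 0.1. The effect at 28°C exceeded that at 22°C by 1.28 ± 0.21 (interaction, limma adjusted p = 0.0012), and the effect at 25°C exceeded it by 0.88 ± 0.21 (adjusted p = 0.019). Of all genes, 1.59 and 2.05% had a larger interaction. The same samples at 22°C enter both interactions, and both stayed past the threshold whichever sample was left out, the highest adjusted p being 0.0039 at 28°C and 0.0453 at 25°C. With median-of-ratios scaling the 3 Si effects were -0.88, 0.02 and 0.40 (adjusted p of 0.000165, 0.916 and 0.0383). With quantile normalization they were -1.08, -0.22 and 0.16, of which only that at 22°C passed (adjusted p of 3.47e-05, 0.233 and 0.394), while the interactions were 0.86 and 1.24.

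Within Si, GA20OX2 rose with temperature. It was 1.04 higher at 28 than at 22°C on the log2 scale (limma adjusted p = 5.5e-05) and 0.51 higher at 25°C (adjusted p = 0.023), without overlap of the 3 samples of either temperature with those at 22°C. The first of these was called. Without the second Si sample at 22°C, the lowest of its group, it was 0.94, with median-of-ratios scaling 0.89 and with quantile normalization 0.68, all under the threshold on the fold. The rise to 25°C was 0.375 with quantile normalization (limma adjusted p = 0.09). Within CK, the adjusted p of GA20OX2 was 0.13 at 25°C and 0.20 at 28°C. With quantile normalization the change in CK from 22 to 28°C was -0.56 (adjusted p = 0.00974), against -0.24 as deposited.

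GA3OX1 (AT1G15550, chromosome 1, 5344388 to 5346342), the GA3-oxidase that makes bioactive GA in most vegetative tissues, had the largest range of group means of the 8 tested genes, 1.82 on the log2 scale. In CK it was low at every temperature: the samples at 22°C had 0.71, 0.36 and 0.30 TPM, those at 25°C had 0.24, 0.40 and 0.27 TPM, and those at 28°C had 0.30, 0.56 and 0.38 TPM. In Si the samples at 22°C had 1.07, 0.34 and 0.88 TPM, those at 25°C had 4.09, 3.49 and 3.20 TPM, and those at 28°C had 2.48, 2.18 and 1.36 TPM. At 25 and 28°C every Si sample was above every CK sample, and at 22°C the groups overlapped. The mean of Si was 3.59 ± 0.45 TPM at 25°C (SD, n = 3) against 0.30 ± 0.09 TPM in CK.

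GA3OX1 was called higher in Si at 25°C, by 1.81 ± 0.19 (SE) on the log2 scale (limma adjusted p = 7.5e-07), and 1.93% of all genes had a larger change in that comparison. At 28°C it was higher by 1.07 ± 0.19 (adjusted p = 0.00018). This call fell below the threshold on the fold without the first Si sample at 28°C (0.96), with median-of-ratios scaling (0.91) and with quantile normalization (0.67). At 22°C the difference was 0.26 ± 0.19 (adjusted p = 0.24), close to the median of all genes, and it was -0.06 after quantile normalization. The Si effect at 25°C exceeded that at 22°C by 1.55 ± 0.26 (interaction, adjusted p = 0.0031), and 0.434% of all genes had a larger interaction. At 28°C the excess over 22°C was 0.81 ± 0.26 with an adjusted p of 0.044. That call was lost in 20 of the 25 alternatives that tested this gene, 15 of them removals of 1 of the 18 samples, with adjusted p up to 0.109. With median-of-ratios scaling and quantile normalization the excess was 0.748 and 0.724 (limma adjusted p of 0.0625 and 0.0794).

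Temperature alone left GA3OX1 without a call in CK (adjusted p of 0.65 at 25°C and 0.89 at 28°C). Within Si it rose by 1.40 from 22 to 25°C (limma adjusted p = 0.0002), which was called, and by 0.77 from 22 to 28°C (adjusted p = 0.0030), which was not. The rise from 22 to 28°C was called in 2 of the alternatives, at up to 1.363. With median-of-ratios scaling it was 0.627 (adjusted p = 0.0138) and with quantile normalization 0.417 (adjusted p = 0.0984). In Si, all 3 samples at 25°C were above all 3 at 28°C. That difference was not tested.

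**Figure D1:**
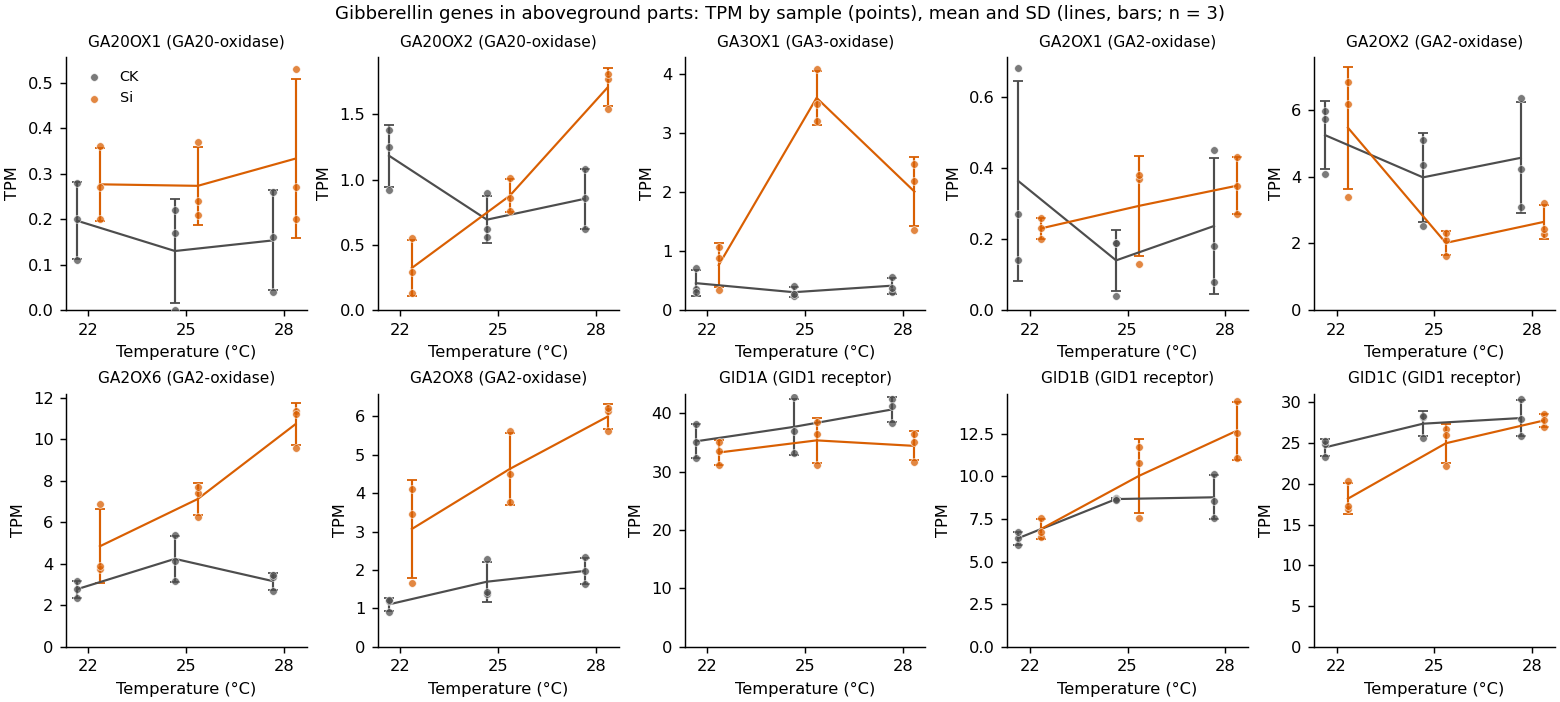
TPM of the 10 GA genes (vertical axes, each from 0) against temperature in °C, with points for samples, lines through group means and bars for the SD of 3 samples, CK in grey and Si in orange. GA3OX1 in Si reaches 3.20 to 4.09 TPM at 25°C while CK stays at or below 0.71 TPM, and GA20OX2 in Si is below CK at 22°C and above it at 28°C.

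Among the inactivating enzymes, GA2OX8 was called higher in Si at 25 and 28°C and GA2OX6 at 28°C, and GA2OX2 was not called in Si against CK. GA2OX8 (AT4G21200, chromosome 4, 11302682 to 11306770), which acts on the early C20 precursors, had 1.18, 1.22 and 0.91 TPM in CK and 4.10, 1.65 and 3.45 TPM in Si at 22°C. At 25°C it had 2.29, 1.36 and 1.43 TPM in CK and 5.62, 4.49 and 3.78 TPM in Si. The values at 28°C were 1.96, 2.33 and 1.63 TPM in CK and 6.13, 6.23 and 5.62 TPM in Si. At each temperature the lowest Si sample was above the highest CK sample.

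The Si effect on GA2OX8 was 0.90, 1.07 and 1.24 on the log2 scale at 22, 25 and 28°C, each with an SE of 0.21 and with limma adjusted p of 0.0016, 0.00036 and 0.00013. It was called at 25 and 28°C. The fold stood close to its threshold: the value at 22°C was 1.18 without the second Si sample, and the value at 25°C was 0.98 without the second CK sample, 0.94 without the first Si sample and 0.85 with median-of-ratios scaling. At 22 and 28°C that scaling gave 0.73 and 1.03. With quantile normalization the 3 values were 0.51, 0.63 and 0.84, none called, and that at 22°C had an adjusted p of 0.0696. The interactions did not pass (adjusted p of 0.76 at 25°C and 0.46 at 28°C), so an effect of temperature on the Si response of this gene was not detected. Within Si, GA2OX8 was 0.83 higher at 28 than at 22°C (adjusted p = 0.0037). Quantile normalization gave 0.505 for this rise (limma adjusted p = 0.0795).

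GA2OX6 (AT1G02400, chromosome 1, 486800 to 489651), a GA2-oxidase of C19 GAs, had 2.79, 3.18 and 2.35 TPM in CK and 3.75, 6.89 and 3.89 TPM in Si at 22°C. At 25°C it had 5.39, 3.19 and 4.13 TPM in CK and 6.26, 7.42 and 7.69 TPM in Si. Those at 28°C were 3.35, 3.45 and 2.69 TPM in CK and 9.59, 11.38 and 11.24 TPM in Si. In TPM as deposited, the groups did not overlap at any temperature, and the gap was widest at 28°C.

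The Si effect on GA2OX6 was 0.60 ± 0.18 (SE) at 22°C, 0.65 ± 0.18 at 25°C and 1.5 ± 0.18 at 28°C, with limma adjusted p of 0.012, 0.0064 and 8.3e-06. Only the effect at 28°C was called, and it was called in all 26 alternatives, at 1.17 or more. At 22 and 25°C the adjusted p was 0.11 and 0.0764 with median-of-ratios scaling. With quantile normalization these 2 effects were 0.163 and 0.232 (limma adjusted p of 0.463 and 0.276). The effect at 28°C exceeded that at 22°C by 0.90 ± 0.26 (interaction, adjusted p = 0.027), a call that was lost in 6 of the 18 removals of 1 sample, with adjusted p up to 0.0681. Within Si the gene was called higher at 28 than at 22°C (1.04, adjusted p = 0.00031). Without the first or the third Si sample at 22°C this value was 0.91 or 0.94, with median-of-ratios scaling 0.84, and with quantile normalization 0.79, all under the threshold.

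GA2OX2 (AT1G30040, chromosome 1, 10537457 to 10540044), also a GA2-oxidase of C19 GAs, lay lower in Si than in CK at 25°C. At 22°C it had 4.07, 5.72 and 5.96 TPM in CK and 3.39, 6.85 and 6.18 TPM in Si, with overlap. In the samples at 25°C it had 4.35, 2.51 and 5.09 TPM in CK and 1.63, 2.11 and 2.31 TPM in Si, without overlap. At 28°C it had 3.10, 4.24 and 6.37 TPM in CK and 2.28, 2.44 and 3.22 TPM in Si, and the highest Si sample exceeded the lowest CK sample.

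The Si effect on GA2OX2 was -0.69 ± 0.26 (SE) at 25°C (limma adjusted p = 0.028) and -0.58 ± 0.26 at 28°C (adjusted p = 0.066), and neither was called. Without 1 sample the adjusted p at 25°C was up to 0.117. Relative to the median of all genes they were -0.95 and -0.80. With median-of-ratios scaling they were -0.909 and -0.752 (limma adjusted p of 0.0062 and 0.0221). Quantile normalization gave -1.115, which was called, and -0.971 (adjusted p of 0.000904 and 0.00303). With the replicate number as a block, the adjusted p at 28°C was 0.023. At 22°C the value was 0.02 ± 0.26 (adjusted p = 0.95), and it was -0.23 with median-of-ratios scaling. Neither interaction passed (adjusted p of 0.22 and 0.28). Within Si, GA2OX2 was called lower at 25 than at 22°C, by -1.06 on the log2 scale (adjusted p = 0.0082), and was -0.79 at 28°C (adjusted p = 0.018, not called). The call at 25°C fell under the threshold on the fold without the second Si sample (-0.90) or the third (-0.97) at 22°C or the first at 25°C (-0.97).

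GA2OX1 (AT1G78440, chromosome 1, 29511561 to 29513100), a further C19 GA2-oxidase, was between 0.04 and 0.68 TPM. In the fit without the filter its Si effects were -0.13, 0.18 and 0.14, with limma adjusted p of 0.49, 0.30 and 0.45.

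**Figure D2:**
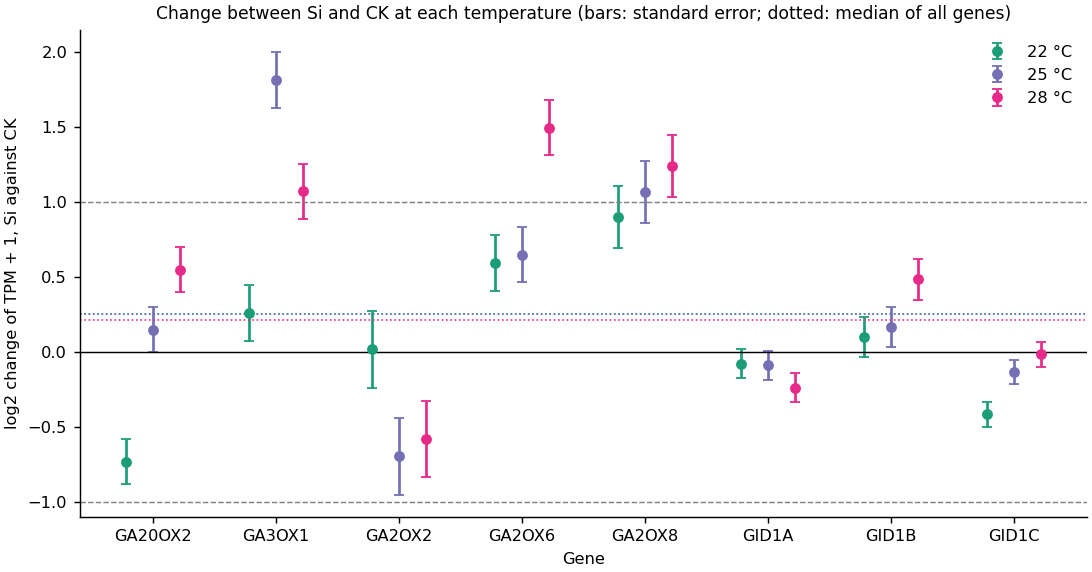
Log2 change of TPM + 1 between Si and CK (vertical axis) for the 8 tested GA genes at 22, 25 and 28°C, with bars for the SE, dashed lines at the threshold of 1 and dotted lines at the median of all genes. GA3OX1 at 25°C (1.81) and GA2OX6 at 28°C (1.5) lie highest, and GA20OX2 at 22°C (-0.73) and GA2OX2 at 25°C (-0.69) lie lowest.

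GID1A and GID1C were the most abundant of the 10 transcripts in every sample. Among the receptors, GID1B, which binds GA most tightly, was the least abundant. GID1A and GID1C are 84.2% identical over their coding sequence and share a run of 35 bases, at coding bases 892 to 926 of GID1A and 886 to 920 of GID1C. This run is shown because a read that lay wholly within it could not be assigned to either gene by its sequence. No base is in capitals since all are identical.
GID1A and GID1C, coding strand: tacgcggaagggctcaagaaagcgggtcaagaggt
GID1B is 71.4% identical to GID1A and 72.5% to GID1C. How reads were split between GID1A and GID1C was not tested. Of the enzymes, GA20OX1 and GA20OX2 share 79.4% and a run of 29 bases, and the GA2OX pairs 61.1 to 68.4%.

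GID1A (AT3G05120, chromosome 3, 1430363 to 1432844) was the most even of the 8 genes, with a range of group means of 0.28 on the log2 scale. At 22°C it had 32.32, 35.12 and 38.10 TPM in CK and 33.59, 35.15 and 31.05 TPM in Si. At 25°C it had 33.22, 36.99 and 42.76 TPM in CK and 31.11, 38.45 and 36.47 TPM in Si, and at both temperatures the groups overlapped. At 28°C it had 38.30, 42.39 and 41.19 TPM in CK and 31.67, 35.03 and 36.50 TPM in Si, and all Si samples were below all CK samples. The Si effects were -0.08, -0.09 and -0.23, each with an SE of 0.10 and with limma adjusted p of 0.52, 0.45 and 0.0503. Relative to the median of all genes they were -0.34, -0.35 and -0.45, and with median-of-ratios scaling the adjusted p was 0.0036, 0.0027 and 0.00056. Without the third CK sample at 25°C the effect at that temperature was 0.01.

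GID1C (AT5G27320, chromosome 5, 9628990 to 9631291) was lower in Si at 22°C. There it had 23.25, 24.87 and 25.29 TPM in CK and 20.32, 16.89 and 17.31 TPM in Si, without overlap. At 25°C it had 28.24, 28.27 and 25.62 TPM in CK and 22.23, 26.68 and 26.01 TPM in Si, with overlap. In the samples at 28°C it had 25.84, 30.36 and 28.01 TPM in CK and 26.93, 28.55 and 27.81 TPM in Si, and the samples of both treatments lay in the same range.

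The Si effect on GID1C was -0.41 ± 0.08 (SE) at 22°C (limma adjusted p = 0.00056), -0.13 at 25°C (adjusted p = 0.18) and -0.01 at 28°C (adjusted p = 0.91). With median-of-ratios scaling it was -0.70, -0.42 and -0.25, with adjusted p of 7.8e-06, 0.0007 and 0.0238. The effect at 28°C lay 0.40 ± 0.12 above that at 22°C (interaction, adjusted p = 0.028), a call that was lost in 7 of the 18 removals of 1 sample, with adjusted p up to 0.0676. Within Si, GID1C was 0.44 higher at 25 and 0.59 higher at 28 than at 22°C (adjusted p of 0.0020 and 4.3e-05). These are changes of 1.35-fold and 1.5-fold on the scale of TPM + 1, under the threshold on the fold.

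GID1B (AT3G63010, chromosome 3, 23289243 to 23291486) was higher at 28 than at 22°C in both treatments. It had 5.98, 6.38 and 6.75 TPM in CK and 6.43, 7.57 and 6.73 TPM in Si at 22°C. At 25°C it had 8.73, 8.68 and 8.59 TPM in CK and 7.57, 11.70 and 10.81 TPM in Si. At 28°C it had 7.58, 10.16 and 8.57 TPM in CK and 14.43, 11.06 and 12.54 TPM in Si. All Si samples were above all CK samples at 28°C only.

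At 28°C GID1B was 0.49 ± 0.13 (SE) higher in Si (limma adjusted p = 0.0063), and with median-of-ratios scaling 0.26 (adjusted p = 0.127). At 22 and 25°C the effects were 0.10 and 0.17 (adjusted p of 0.54 and 0.29), which median-of-ratios scaling turned to -0.16 and -0.10. Between 22 and 28°C it rose by 0.40 in CK (adjusted p = 0.022) and by 0.79 in Si (adjusted p = 0.00023), and the interaction did not pass (adjusted p = 0.18). With median-of-ratios scaling the rise in CK was 0.17 (adjusted p = 0.35) and that in Si 0.58 (adjusted p = 0.00267). Without 1 sample the adjusted p of the rise in CK was up to 0.11. From 22 to 25°C it was 0.46 higher in Si (adjusted p = 0.022), with 1 of the samples at 25°C, at 7.57 TPM, equal to the highest at 22°C.

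The share of each gene in the summed TPM of its family in a sample does not depend on the scaling between samples. A family here is GID1A, GID1B and GID1C, or GA2OX1, GA2OX2, GA2OX6 and GA2OX8. GA2OX4, at 0.25 to 1.85 TPM, is not in the sum. Differences of this share were tested with an exact permutation test, two-sided, with treatment permuted within temperature (8000 arrangements, smallest possible p 0.00025), and p was adjusted over the 7 genes of both families. GID1B made up 10.9% of the summed receptors on average in CK and 14.3% in Si (p = 0.0005, adjusted p = 0.00175, exact permutation test). By group its mean share was 9.65, 11.8 and 11.3% in CK and 11.9, 14.1 and 17.0% in Si at 22, 25 and 28°C. GID1A held 52.2% in CK and 51.1% in Si, and GID1C 36.9 and 34.6%, with adjusted p of 0.44 and 0.095 (exact permutation test). The summed TPM of the 3 receptors was 66.0, 73.7 and 77.5 in CK and 58.4, 70.3 and 74.8 in Si.

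In the GA2-oxidases the composition differed more. GA2OX2 made up 46.6% of the summed TPM of GA2OX1, GA2OX2, GA2OX6 and GA2OX8 in CK and 22.4% in Si, with adjusted p = 0.00175 and a p of 0.00025, the smallest that this exact permutation test can give. GA2OX8 went from 16.3 to 29.1% (adjusted p = 0.00175) and GA2OX6 from 34.6 to 46.7% (adjusted p = 0.00525). The shares of a family are parts of a whole, so their changes are not independent of each other. At 25 and 28°C GA2OX2 held 39.2 and 45.2% in CK but 14.3 and 13.4% in Si. At 22°C it held 55.2 ± 7.6% in CK and 39.5 ± 8.7% in Si (SD, n = 3), while its mean level was 5.25 TPM in CK and 5.47 TPM in Si. GA2OX1 held 2.59 and 1.86% (adjusted p = 0.40). The summed TPM of the 4 genes was 9.49, 10.1 and 9.94 in CK and 13.6, 14.1 and 19.7 in Si at 22, 25 and 28°C. In TPM as deposited, the lowest Si sum was above the highest CK sum at each temperature. Unlike the shares, the sums of either family depend on the scaling between samples. Whether the sums stay apart under another scaling was not tested.

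Between 22 and 28°C, with temperature permuted within treatment (400 arrangements, smallest possible p 0.005), the share of GID1B rose from 10.8 to 14.1% (p = 0.005, adjusted p = 0.035, exact permutation test). GA2OX2 had 47.3% at 22°C and 29.3% at 28°C (adjusted p = 0.0525), GA2OX6 had 32.2 and 43.3% (adjusted p = 0.061), and GID1A had 55.1 and 49.2% (adjusted p = 0.061). These, and the remaining genes with adjusted p of 0.091 or more, did not pass.

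**Figure D3:**
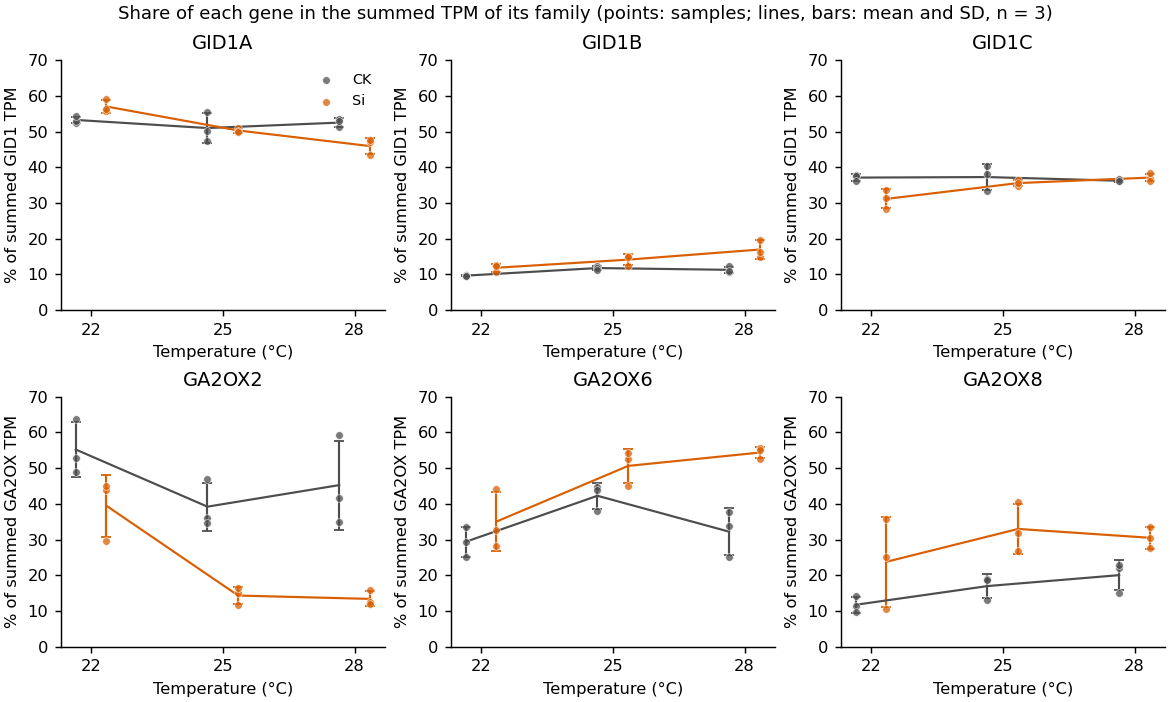
Share of GID1A, GID1B and GID1C in their summed TPM, and of GA2OX2, GA2OX6 and GA2OX8 in the summed TPM of these and GA2OX1 (vertical axes, %), against temperature in °C, with points for samples and bars for the SD of 3 samples. GA2OX2 holds 39.2% or more in CK means but 14.3 and 13.4% in Si at 25 and 28°C, and GID1B is higher in Si than in CK.

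Counted together, 0 of the 8 tested genes were called in Si against CK at 22°C, where 8.0% of all genes were called higher and 1.34% lower. Both at an unadjusted p under 0.05 and at an adjusted p of at most 0.05, the same 4 of the 8 passed there (GA2OX6 and GA2OX8 higher, GA20OX2 and GID1C lower), while 62.5% and 58.1% of all genes did. At 25°C, 2 were called higher (GA3OX1 and GA2OX8) and 0 lower, with 9.43% of all genes called higher and 2.69% lower. At 28°C, 3 were called higher (GA3OX1, GA2OX6 and GA2OX8) and 0 lower, with 7.95% of all genes higher and 1.72% lower. The median log2 fold change of the 8 genes was 0.06, 0.16 and 0.52 at the 3 temperatures, beside 0.26, 0.26 and 0.22 for all genes.

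For the interaction at 25°C, 2 of the 8 were called higher (GA20OX2 and GA3OX1) and 0 lower, where 4.37% of all genes were called higher and 5.36% lower. At 28°C, 4 were called higher (GA20OX2, GA3OX1, GA2OX6 and GID1C) and 0 lower, where 6.92% of all genes were called higher and 10.2% lower. The median of the 8 genes was 0.12 at 25°C and 0.39 at 28°C, beside 0.02 and -0.03 for all genes. Without 1 sample, 2 genes remained called at 25°C and between 1 and 3 at 28°C.

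For temperature within CK, 0 of the 8 were called at 25°C, with 0.424% of all genes called higher and 0.145% lower, and 0 at 28°C, with 4.24% higher and 0.649% lower. In each of these, 3 of the 8 had an unadjusted p under 0.05, as did 27.3% of all genes at 25°C and 55.6% at 28°C. Within Si, 1 was called higher (GA3OX1) and 1 lower (GA2OX2) at 25°C, with 0.843% of all genes called higher and 1.32% lower. At 28°C, 2 were called higher (GA20OX2 and GA2OX6), with 5.27% of all genes higher and 1.37% lower. Each comparison with 22°C shares the samples at 22°C with the other of its treatment.

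**Figure D4:**
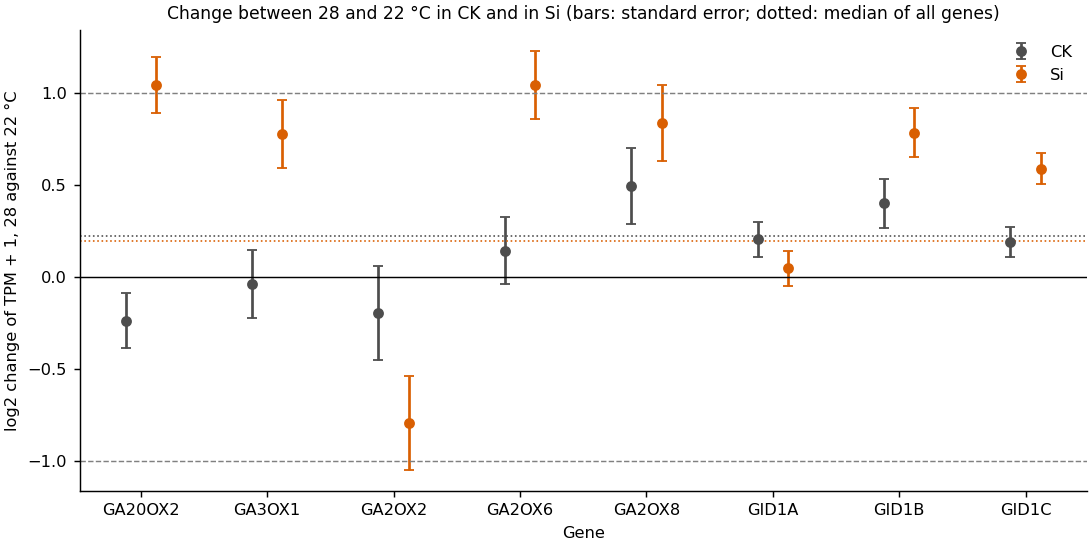
Log2 change of TPM + 1 between 28 and 22°C (vertical axis) in CK (grey) and Si (orange) for the 8 tested GA genes, with bars for the SE, dashed lines at the threshold of 1 and dotted lines at the median of all genes. In Si, GA20OX2 and GA2OX6 lie at 1.04 and GA2OX2 at -0.79, while GA20OX2 and GA2OX6 lie between -0.5 and 0.5 in CK.

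Of 41 other genes of the pathway, listed by name, 27 passed the filter. Of the early enzymes, CPS, the entry enzyme, was at 0.40 TPM or less. The others were above 1 TPM in every sample, with KS lowest: KS at 1.66 to 4.14, KO at 17.0 to 25.1, KAO1 at 6.89 to 11.1 and KAO2 at 21.7 to 37.9 TPM. None of the 4 tested was called in any of the 9 comparisons. GA20OX3, GA20OX4 and GA20OX5 were at 0.07 TPM or less in every sample, as were GA3OX3 and GA3OX4. GA3OX2, the second GA3-oxidase of vegetative growth, was at 0.93 TPM or less and not tested. Its values ranged from 0.24 to 0.93 TPM in Si and from 0.00 to 0.15 TPM in CK at 22°C. The ranges were 0.28 to 0.50 TPM in Si and 0.00 to 0.04 TPM in CK at 25°C. At 28°C they were 0.11 to 0.32 TPM in Si and 0.00 to 0.11 TPM in CK. GA2OX4 was at 0.25 to 1.85 TPM and was not called, and GA2OX3 and GA2OX7 were at 0.09 TPM or less.

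The DELLA genes differed among themselves. RGA and GAI, the most abundant at 39.3 to 56.2 and 18.4 to 26.0 TPM, were not called except for RGA in the interaction at 28°C, -0.36 (limma adjusted p = 0.021). This gene falls outside the rule for naming and was chosen after its values were seen. RGL1 had 0.62 to 1.31 TPM in CK and 2.97 to 3.78 TPM in Si at 22°C. The ranges were 1.19 to 1.95 TPM in CK and 4.59 to 5.57 TPM in Si at 25°C, and 2.23 to 3.46 TPM in CK and 5.74 to 7.03 TPM in Si at 28°C. All Si samples lay above all CK samples at each temperature, and RGL1 was called higher in Si by 1.23, 1.25 and 1.01 on the log2 scale (limma adjusted p of 1.1e-05, 6.8e-06 and 7.4e-05). With median-of-ratios scaling these were 1.07, 1.03 and 0.80, the last no longer called, and with quantile normalization 0.84, 0.81 and 0.63, none called. RGL3 was called higher in Si at 22°C, by 1.33 (adjusted p = 0.0033; 0.90 and not called with quantile normalization), with 5.37 to 8.18 TPM in Si and 1.95 to 2.47 TPM in CK. Within Si it was lower at 25 and at 28 than at 22°C, by -1.47 and -1.10 (adjusted p of 0.0064 and 0.014).

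GASA1, which encodes a small cysteine-rich GA-regulated protein, was the most changed of the list. At 22°C it had 1349 to 1851 TPM in CK and 569 to 998 TPM in Si. The ranges were 3592 to 4392 TPM in CK and 457 to 723 TPM in Si at 25°C, and 5011 to 6275 TPM in CK and 1038 to 2252 TPM in Si at 28°C. It was called lower in Si at 22, 25 and 28°C, by -1.17, -2.84 and -2.00 (limma adjusted p of 0.0014, 2.7e-07 and 1.4e-05), though with quantile normalization the value at 22°C was -0.96 and not called. It was called higher in CK at 25 and 28 than at 22°C, by 1.34 and 1.86 (adjusted p of 0.0066 and 4.7e-05). Within Si it was called higher at 28 than at 22°C, by 1.02 (adjusted p = 0.0046), but not with median-of-ratios scaling (0.81). The Si effect at 25°C was 1.67 below that at 22°C, an interaction of -1.67 (adjusted p = 0.012). Of the same family, GASA6 was called higher in Si at 25°C (1.16, adjusted p = 4.2e-06, but 0.86 and not called with median-of-ratios scaling) and GASA9 lower at 28°C (-1.09, adjusted p = 6.2e-07). GASA4, which falls outside the rule for naming, was also called higher in Si at 25°C.

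Further genes of the list named by size were called as follows. The Si effect on XERICO, a RING-H2 gene that DELLAs are known to induce, was higher at 25 and 28 than at 22°C (interactions of 0.73 and 0.77, limma adjusted p of 0.0057 and 0.0020). SCL3, a GRAS gene that acts with GA against DELLAs, had an interaction of 0.80 at 28°C (adjusted p = 0.0012), with 12.5 to 12.8 TPM in CK and 6.58 to 7.80 TPM in Si at 22°C, and 12.0 to 14.5 and 13.1 to 15.5 TPM at 28°C. SPY, an O-fucosyltransferase that acts on DELLAs, had an interaction of -0.54 at 25°C (adjusted p = 0.012). GASA9 had an interaction of -0.91 at 28°C (adjusted p = 0.00089). The GA transporter gene NPF3 was called higher at 28 than at 22°C in Si (1.04, limma adjusted p = 5.8e-05), and GASA14 in CK (1.005, adjusted p = 0.0003), and with median-of-ratios scaling they stood at 0.83 and 0.74, not called. At 28°C, NPF3 was also called higher in Si than in CK, just past the threshold on the fold (1.005, limma adjusted p = 5.1e-05).

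Over the whole list of 27, 2 were called higher and 1 lower in Si at 22°C, 3 and 1 at 25°C, and 2 and 2 at 28°C, beside 8.0 and 1.34%, 9.43 and 2.69%, and 7.95 and 1.72% of all genes. The median Si effect of the list was 0.02, -0.06 and 0.03 at the 3 temperatures, below the 0.26, 0.26 and 0.22 of all genes. Of the interactions, 1 was called higher and 3 lower at 25°C, and 2 higher and 5 lower at 28°C, beside 4.37 and 5.36%, and 6.92 and 10.2% of all genes.

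**Figure D5:**
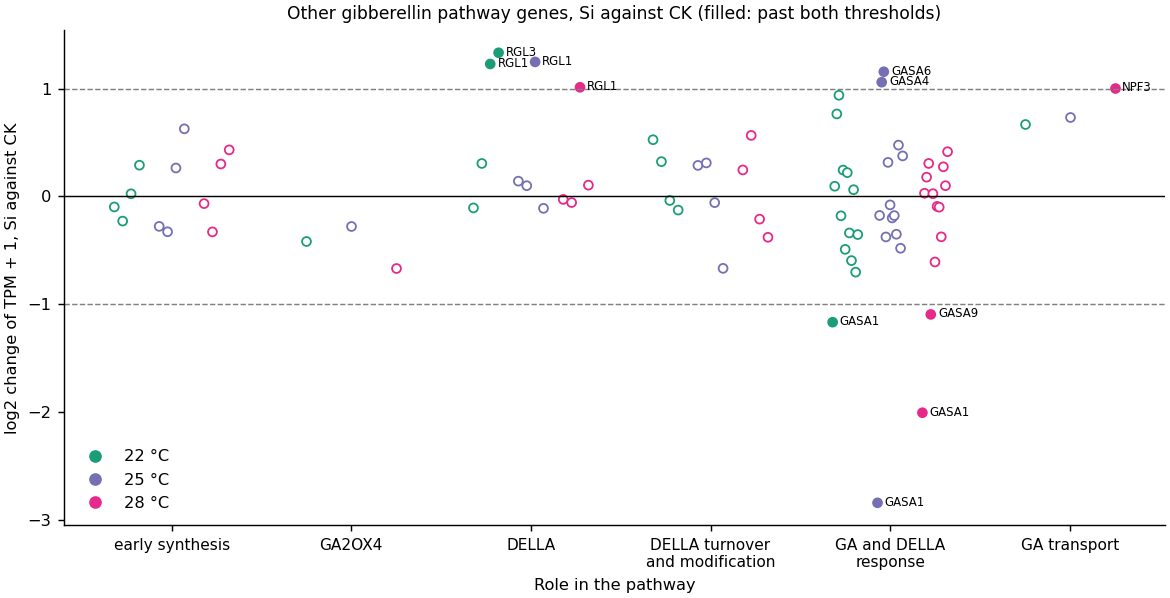
Log2 change of TPM + 1 between Si and CK (vertical axis) for the 27 tested other GA pathway genes, grouped by role along the horizontal axis and coloured by temperature, with filled, named points for those called and dashed lines at the threshold of 1. GASA1 lies lowest, at -2.84 at 25°C, and RGL1 is above 1 at each temperature.

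The genes whose pattern was most like that of the 3 GA genes with the widest range were found by Pearson r of log2(TPM + 1) over the 18 samples, which share treatment and temperature groups. For GA3OX1 these were HB5 (r = 0.936), EXPA15 (0.924) and TPPH (0.922), and 38 genes had r over 0.9. For GA2OX6 they were AT1G66920 (0.957), CHX16 (0.956) and AT1G65690 (0.955), among 144 such genes. For GA2OX8 they were AT3G27500 (0.967), ABCG4 (0.964) and BSK3 (0.963), among 920. Among the GA genes themselves, r was 0.83 between GA3OX1 and GA2OX8, 0.817 between GA2OX6 and GA2OX8, and -0.789 between GA3OX1 and GA2OX2. Between GA20OX2 and GA3OX1, r was 0.30, and GID1B had r of 0.464 with GA20OX2 and 0.517 with GA3OX1.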

How the data were processed

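The authors deposited 1 table of TPM values for 33039 genes and 18 samples. Per their paper, reads were aligned to TAIR10 and transcripts quantified with RSEM. The protocol in the labels names SeqPrep, Sickle, HISAT2 and StringTie (versions: not given in the sources used here). Depth cannot be read from TPM and is unknown, and the count test that the paper names could not be run. Genes reaching 1 TPM in 3 samples or more (20044) were tested as log2(TPM + 1) in limma 3.58.1 under R 4.3.3, with a mean for each of the 6 groups over the 18 samples (variance trend, 12 residual degrees of freedom, two-sided tests, Benjamini-Hochberg adjustment over genes). Gene positions, coding sequences and upstream windows came from RefSeq TAIR10.1, in which 32548 of the 33039 identifiers were found. The fit was tested on simulated data with noise of equal size in all genes and no planted shift common to all genes. Changes were planted only in genes well above 1 TPM, so their recovery near 1 TPM was not tested.

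The 10 genes, the list of other pathway genes and the tests were chosen with earlier results of these data known. All 10 genes are named. Of the list, up to 3 called genes per comparison with the largest change are named, and other genes of it are named only with their levels or as called or not. The genes most alike were taken by r for the 3 genes with the widest range of group means. Other settings tried were pseudocounts of 0.1 and 0.5, the filter removed or raised to 5 TPM, fits restricted to the groups of a comparison, scaling by median of ratios or by quantiles, a block for replicate number, calls without a minimum fold, omission of single samples and, for shares, log ratios. Sequencing batch and time of harvest were not given.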

Additional observations from a re-analysis of the deposited data

Results flagged for a closer look

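The effect of Si differed between temperatures, by the interaction term of limma, for GA20OX2 at 25 against 22°C (0.88, adjusted p = 0.019) and at 28 against 22°C (1.28, adjusted p = 0.0012), with 3 of 3 Si samples below all CK samples at 22°C and 3 of 3 above at 28°C. It differed for GA3OX1 at 25°C (1.55, adjusted p = 0.0031) and, in the deposited values, at 28°C (0.81, adjusted p = 0.044), a call lost in 20 of 25 alternatives. It also differed at 28°C for GA2OX6 (0.90, adjusted p = 0.027) and GID1C (0.40, adjusted p = 0.028), calls lost in 6 and 7 of 18 removals of 1 sample. The same samples at 22°C enter all these values.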

How the results depend on the processing

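Several called values lie near 1. The numbers of GA genes called depended most on the threshold on the fold, and also on scaling and the pseudocount. Without that threshold, 4, 4 and 5 genes passed for Si against CK at 22, 25 and 28°C, 5 for 25 against 22°C in Si, 7 for 28 against 22°C in Si and 1 for 28 against 22°C in CK, while 58.1, 61.3, 55.4, 23.7, 49.5 and 49.0% of all genes did. With median-of-ratios scaling, 1 was called for Si against CK at 25°C and 0 for 28 against 22°C in Si. With quantile normalization, 1 was called for Si against CK at 22°C, 1 at 28°C and 1 for 28 against 22°C in Si, there GA2OX2 (-1.12) in place of GA20OX2 and GA2OX6. For Si against CK at 25°C, GA2OX2 (-1.115) was called with quantile normalization and GA2OX8 (0.633) was not. In CK from 22 to 28°C, the replicate number as a block brought GID1A and GA2OX8 to adjusted p of 0.0342 and 0.0424, under the threshold on the fold. A pseudocount of 0.1 gave 2 at 22°C and 4 for 28 against 22°C in Si, and 0.5 gave 2 at 22°C. The filter at 5 TPM, which tests 6 of the genes and leaves out GA20OX2 and GA3OX1, gave 1 for Si against CK at 25°C, 0 and 2 for the interactions at 25 and 28°C, 1 for 25 against 22°C in Si and 1 for 28 against 22°C in Si.

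Without 1 sample, the count was 0 to 1, 1 to 2 and 2 to 3 for Si against CK at 22, 25 and 28°C, 2 for the interaction at 25°C and 1 to 3 at 28°C, 1 to 2 for 25 against 22°C in Si and 1 to 3 for 28 against 22°C in Si. The number of GID1 shares that passed was 1 to 2 for Si against CK and 0 to 2 for 28 against 22°C, and of GA2OX shares 0 to 3 for 28 against 22°C, with 0 in the full set. Log ratios in place of percentages gave 2 GID1 shares for Si against CK, 2 for 28 against 22°C and 3 GA2OX shares for 28 against 22°C. The replicate number as a block gave 0 GID1 shares for 28 against 22°C and moved no count of called genes by over 1.5 times. The numbers do not pair the samples by the labels, and same-numbered deviations correlated between -0.067 and 0.182, with 0 of 15 pairs of groups past 0.1 throughout. In 15 of 18 samples the best correlation was with the own number.

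Directions turned only for effects that did not pass. For Si against CK at 22°C, GA3OX1 was -0.055 with quantile normalization, GA2OX2 was -0.234 and -0.381 and GID1B -0.162 and -0.297 with median-of-ratios scaling and quantile normalization, and GA2OX2 ran from -0.141 to 0.278 without 1 sample. At 25°C, GID1B was -0.099 and -0.164 with these scalings, GA20OX2 was -0.222 with quantile normalization, and GID1A ran from -0.171 to 0.006 without 1 sample. At 28°C, GID1C ran from -0.069 to 0.043. The change of the share of GA2OX1 between 22 and 28°C ran from -1.15 to 0.154 percentage points. The cause of these shifts was not tested. Depth is unknown, so the low values of GA20OX1, GA20OX2, GA2OX1 and GA3OX1 in CK have no counting error beside the replicate spread.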
